A study of Mus musculus with 84 samples.

Results

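The response of C3HeB/FeJ liver to TCDD (2,3,7,8-tetrachlorodibenzo-p-dioxin, a persistent ligand of the aryl hydrocarbon receptor) was read from 6 RNA sequencing libraries of a panel of 84 libraries from 14 mouse strains. All 3 libraries labelled C3HeB/FeJ TCDD and all 3 labelled C3HeB/FeJ vehicle were taken, with every gene. Per the labels, the livers were of pregnant females aged 6 to 8 weeks at the first dose, and TCDD was eaten in peanut butter at 0.1 µg/kg on each of 10 days. The vehicle group ate the peanut butter alone at a dose of 0. C3HeB/FeJ is an inbred strain of the C3H family, and no transgene or deletion is named for either group. The labels do not say that each library is a mouse of its own, so p-values here measure the spread between libraries. Unless stated, that spread was estimated over all 84 libraries of the panel and not over these 6 alone. Counts assigned to genes were 16338511 to 18593600 per library, and 16195 of 37310 gene IDs passed the filter on low counts and were tested. Livers are bulk samples, in which fewer cells of a type and less RNA per cell cannot be told apart.

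The aryl hydrocarbon receptor, AHR, waits in the cytoplasm bound to the chaperone HSP90 and PTGES3. When a ligand such as TCDD binds, it moves to the nucleus, pairs with ARNT and binds DNA elements with the core GCGTG. In liver the best known genes it turns on are the cytochrome P450 genes Cyp1a1 and Cyp1a2, whose products oxidise aromatic compounds, and the repressor Ahrr and the ADP-ribosyltransferase Tiparp feed back on the receptor.

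Before the treatment groups were compared, the 6 libraries stood in a pattern that did not follow the treatment. Malat1, a long noncoding RNA kept in the nucleus, was at 662, 104 and 587 CPM (counts scaled by the total of gene counts) in vehicle replicates 1, 2 and 3 and at 53.3, 809 and 184 CPM in TCDD replicates 1, 2 and 3. Vehicle replicates 1 and 3 and TCDD replicate 2 were high, the other 3 were low, and the treatment groups overlapped. Neat1, another nuclear RNA, was at 175.9, 71.2 and 204 CPM in vehicle and 47.4, 456 and 119 CPM in TCDD, with the same 3 libraries high. Reads that the counting assigned to no feature made up 49.0% to 49.6% of reads in the 3 libraries with high Malat1. They made up 46.7% to 47.2% in the 3 with low Malat1. Where these reads lie was not examined. The highest Malat1 level was 15.2 times the lowest, the widest range of the 14 strains, followed by 5.56 times in BXD-40/TyJ. The first principal component of log2 CPM held 56.8% of the variance of the 6 libraries. Treatment alone accounted for 14.0% of the variance, log2 Malat1 CPM alone for 55.7% and both together for 67.4%. With only 6 libraries an arbitrary label would also take a share, so the 14.0% does not by itself show a treatment effect. The biological coefficient of variation of the 6 libraries was 37.5% with treatment alone in the model and 19.4% with Malat1 added. The comparison was therefore made both without and with log2 Malat1 CPM as a covariate, and values are given for both.

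TCDD raised the receptor's classic cytochrome genes and few others above the spread between libraries. Without the covariate, 5 genes of 16195 (0.0309%) were called at an adjusted p below 0.05 in edgeR's quasi-likelihood test, all 5 higher with TCDD: Cyp1a1, Cyp1a2, Htatip2, Nptx1 and Sorcs3. At an unadjusted p below 0.05 there were 875 of 16195 genes, 468 higher and 407 lower. By design this threshold passes a share of about 0.05 of unchanged genes. The median log2 change over all genes tested was 0.0102.

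Cyp1a1, a monooxygenase that is nearly silent in unexposed liver, was at 0.537, 1.72 and 0.0593 CPM in the vehicle libraries and at 75.9, 223 and 1217 CPM in the TCDD libraries. Every TCDD library was far above every vehicle library, and TCDD replicate 3 was the highest. The log2 change was 9.41 ± 1.10 (SE) with an adjusted p of 1.2e-07 in edgeR. Cyp1a2, which liver makes without exposure and which oxidises caffeine and oestrogens, was at 486, 610 and 326 CPM in vehicle and at 4479, 4598 and 7974 CPM in TCDD. The groups did not overlap and their means differed 12.0-fold. The log2 change was 3.69 ± 0.48 (SE), with an adjusted p of 1.46e-06 in edgeR. Cyp1a1 and Cyp1a2 are close paralogs, so reads could be split between them in counting.

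Htatip2, an oxidoreductase also known as TIP30, was at 31.8, 30.2 and 29.7 CPM in vehicle and at 56.1, 63.5 and 79.3 CPM in TCDD. Its vehicle libraries lay close together and all 3 TCDD libraries lay above them. The log2 change was 1.23 ± 0.25 (SE), adjusted p of 0.0265 in edgeR. Nptx1, a secreted pentraxin known from synapses, was at 1.13, 1.24 and 0.712 CPM in vehicle and at 18.97, 2.33 and 14.7 CPM in TCDD. TCDD replicates 1 and 3, the ones with low Malat1, were high, and TCDD replicate 2 was only just above the vehicle libraries. The log2 change was 3.75 ± 0.76 (SE), adjusted p of 0.0265 in edgeR. Sorcs3, a sorting receptor of the VPS10 family, was at 0.776, 0.161 and 0.178 CPM in vehicle and at 7.08, 2.33 and 5.89 CPM in TCDD. It followed the same order, with TCDD replicate 2 the lowest of the treated libraries, and its log2 change was 3.98 ± 0.83 (SE), adjusted p of 0.0448 in edgeR.

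The calls of Htatip2, Nptx1 and Sorcs3 were sensitive to single libraries. Leaving out any 1 library other than TCDD replicate 2 ended all 3 calls. A library left out also makes its group smaller. With 1 library left out the log2 changes kept their sign, at 1.01 to 1.37 for Htatip2, 3.15 to 4.24 for Nptx1 and 3.56 to 4.97 for Sorcs3. The adjusted p in edgeR without vehicle replicates 1, 2 and 3 and TCDD replicates 1 and 3 was 0.232, 0.0797, 0.478, 0.0867 and 0.43 for Htatip2. In the same order it was 0.232, 0.0858, 0.716, 0.416 and 0.151 for Nptx1 and 0.137, 0.114, 1, 0.416 and 0.17 for Sorcs3. Cyp1a1 and Cyp1a2 were called without any 1 of the 6 libraries. They ranged over log2 changes of 7.45 to 10.91 and 3.29 to 4.01. The spread shared across strains had a biological coefficient of variation of 25.5%, against 37.5% in these 6 libraries. With the 6 libraries fitted alone, without that shared spread, no gene was called by edgeR and 174 genes had an unadjusted p below 0.05.

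**Figure D1:**
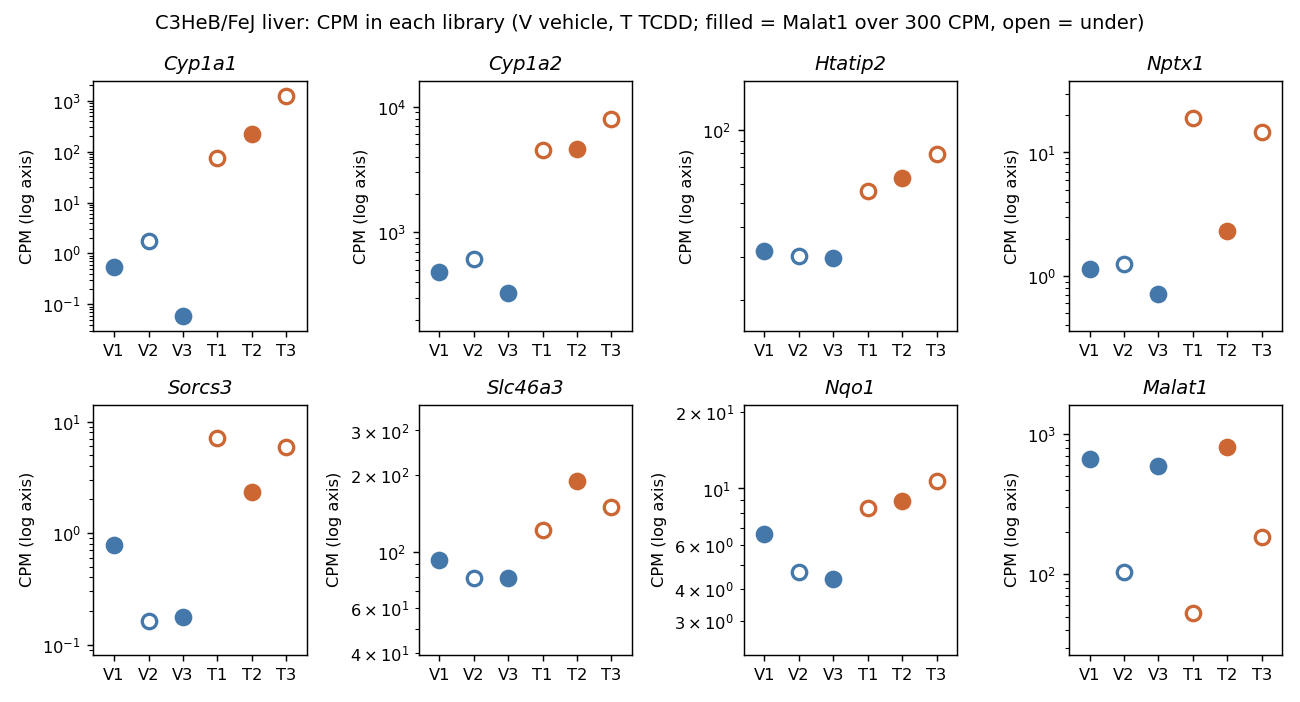
CPM on a log axis in each of the 6 C3HeB/FeJ libraries for the 5 called genes, Slc46a3, Nqo1 and Malat1; V is vehicle, T is TCDD, and filled points are the libraries with Malat1 above 300 CPM. Cyp1a2 is at 326 to 610 CPM in vehicle and 4479 to 7974 CPM in TCDD whatever the Malat1 level, while Nptx1 is at 2.33 CPM in the filled TCDD library and at 14.7 and 18.97 CPM in the open ones.

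The promoters of the called genes show where the receptor's core motif lies in 2 of them and is not found in others. Windows of 300 bases (250 before to 50 after the annotated start) were taken from RefSeq, build GRCm38.p6. Of the 5 genes 4 had a window, and Nptx1 had none. The motif searched was GCGTG on either strand, shown in capitals (CACGC where it lies on the other strand). It is found in 32.4% of 32851 such windows, so a match is a description and not a binding site. Cyp1a1 (chr9:57697363-57697662, plus strand) has 1 match, which begins 54 bases before the start. Cyp1a2 (chr9:57683606-57683905, minus strand) has 0 matches and lies on the opposite strand of the same chromosome. Htatip2 (chr7:49758856-49759155, plus strand) has 2 matches, and a second annotated window of it (chr7:49759262-49759561, not printed) has 0. Sorcs3 (chr19:48205775-48206074, plus strand) has 0.
Cyp1a1: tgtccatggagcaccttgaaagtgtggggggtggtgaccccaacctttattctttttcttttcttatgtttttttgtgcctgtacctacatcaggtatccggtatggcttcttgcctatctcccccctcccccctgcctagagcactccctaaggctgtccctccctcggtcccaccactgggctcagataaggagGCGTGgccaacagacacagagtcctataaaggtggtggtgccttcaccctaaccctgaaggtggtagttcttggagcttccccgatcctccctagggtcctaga
Cyp1a2: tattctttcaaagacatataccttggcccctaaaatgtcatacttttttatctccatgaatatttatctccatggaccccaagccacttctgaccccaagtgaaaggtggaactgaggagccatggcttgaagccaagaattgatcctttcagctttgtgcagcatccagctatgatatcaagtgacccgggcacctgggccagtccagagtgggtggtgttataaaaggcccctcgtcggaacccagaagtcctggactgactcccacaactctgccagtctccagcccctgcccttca
Htatip2: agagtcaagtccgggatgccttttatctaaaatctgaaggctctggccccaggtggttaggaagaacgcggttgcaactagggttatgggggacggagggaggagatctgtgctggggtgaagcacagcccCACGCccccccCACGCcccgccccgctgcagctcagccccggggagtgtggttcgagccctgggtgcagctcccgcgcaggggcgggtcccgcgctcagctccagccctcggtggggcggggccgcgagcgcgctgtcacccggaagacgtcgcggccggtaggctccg

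With log2 Malat1 CPM in the model, the cytochrome genes kept both their size and their calls, and the other 3 genes lost theirs. Of 16194 genes (Malat1 itself left out), 2 were called (0.0124%), both among the 5 above. Cyp1a1 had a log2 change of 9.33 ± 1.11 (SE) and an adjusted p of 2.47e-07 in edgeR. Cyp1a2 had a log2 change of 3.56 ± 0.49 (SE) and an adjusted p of 6.84e-06 in edgeR. Htatip2 moved little, to 1.16 ± 0.25 (SE), but its adjusted p was 0.0932 in edgeR. Nptx1 went from 3.75 to 2.82 ± 0.79 (SE), with an adjusted p of 0.888 in edgeR, and its slope on Malat1 was -0.67 log2 units per doubling of Malat1 (adjusted p of 0.048). Sorcs3 went from 3.98 to 3.52 ± 0.89 (SE), adjusted p of 0.613 in edgeR.

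In the fit of all 84 libraries the covariate added no calls. There were 554 genes at an unadjusted p below 0.05 with it against 875 without it. The 388 genes in both were 44.3% of the 875 and 70.0% of the 554. The median SE of the log2 change was 0.302 without and 0.296 with the covariate, but per gene the median ratio of the SE with to that without was 1.01, and 5832 genes had a smaller SE with it. The median absolute log2 change was 0.221 without and 0.188 with it. In this fit the covariate is 0 in the other strains. The biological coefficient of variation shared by all 84 libraries was 25.5% without and 24.0% with it. With the 6 libraries fitted alone, 709 genes had an unadjusted p below 0.05 with the covariate against 174 without it. In that fit 1 gene was called with the covariate, Cyp1a2, and 0 without it.

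Within libraries of like Malat1 level, Cyp1a2 and Htatip2 differed by similar amounts on both sides and Nptx1 and Sorcs3 did not. These are differences of log2(CPM + 1) with no test. Cyp1a2 in TCDD replicate 2 exceeded the mean of vehicle replicates 1 and 3 by 3.53, and the mean of TCDD replicates 1 and 3 exceeded vehicle replicate 2 by 3.29. The same differences were 7.46 and 6.81 for Cyp1a1 and 1.02 and 1.12 for Htatip2. Nptx1 differed by 0.80 among the libraries with high Malat1 and by 2.98 among those with low Malat1, and Sorcs3 by 1.20 and 2.68. Mean vehicle levels of Cyp1a1 (0.773 CPM), Nptx1 (1.03 CPM) and Sorcs3 (0.372 CPM) were near or below the 1 CPM added. The sizes of their differences therefore depend on that addition, and for Cyp1a1 the 2 sides cannot be compared by them.

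**Figure D2:**
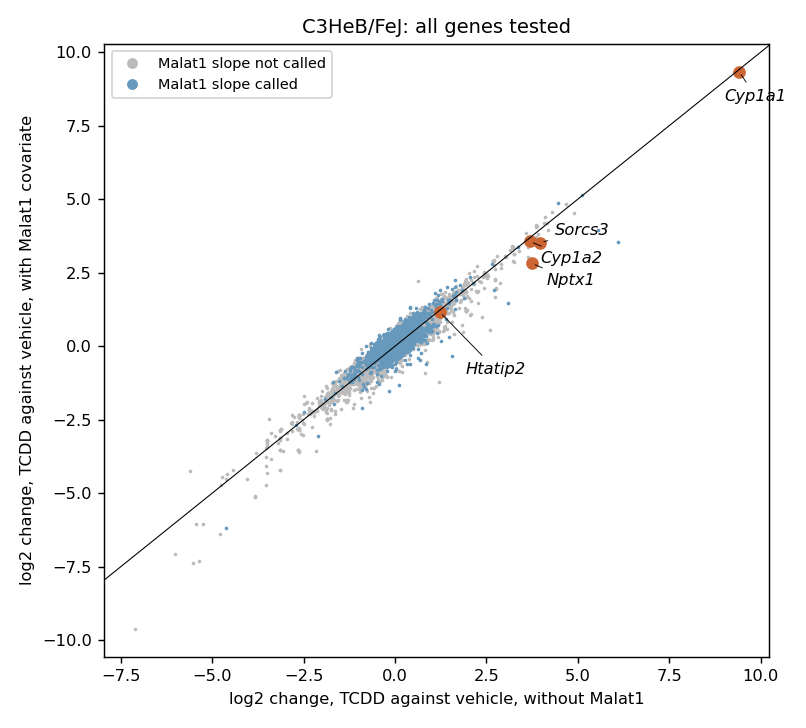
Log2 change of TCDD against vehicle for every gene tested, without the covariate on the x axis and with log2 Malat1 CPM on the y axis; the line marks equal values, blue points are genes with a called slope on Malat1, and orange points are the 5 genes called without the covariate. Cyp1a1 (9.41 and 9.33), Cyp1a2 (3.69 and 3.56) and Htatip2 (1.23 and 1.16) lie near the line, and Nptx1 (3.75 and 2.82) lies below it.

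A large share of the genes tested moved with Malat1. The slope on log2 Malat1 CPM was called for 5353 of 16194 genes (33.1%), 3324 of them higher and 2029 lower where Malat1 was high. Among the smallest p-values were those of Deptor, an inhibitor of the mTOR kinase, the membrane peptidase Dpp4, Cab39l, the vesicle protein Vps41 and Lyar. Deptor was at 230, 47.0 and 176.5 CPM in vehicle and 36.7, 256 and 67.0 CPM in TCDD. Its slope was 0.64 ± 0.07 (SE) log2 units per doubling of Malat1, adjusted p of 2.72e-08 in edgeR, and it was 0.42 with trends on GC content and length removed and 0.40 with a slope shared by all strains. Dpp4 was at 106, 33.2 and 103 CPM in vehicle and 28.5, 130 and 44.9 CPM in TCDD, in the same order of libraries. Among 24 genes of serine and arginine rich splicing factors and CLK kinases, all 24 had a called slope, all higher with Malat1, against 20.5% of all genes tested. Srsf1, one of these splicing factors, was at 59.1, 15.5 and 54.5 CPM in vehicle and 10.6, 76.1 and 19.3 CPM in TCDD. The median TCDD change of this list was -0.08 without the covariate, 0.21 with it, -0.24 with Neat1 in place of Malat1 and -1.05 without TCDD replicate 2 and without the covariate, so its direction depends on the setting, with 0 of 24 called with or without the covariate. Fewer genes had a called slope without TCDD replicate 2 (1817) and without vehicle replicate 2 (3047).

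TCDD replicate 2 was the 1 treated library with high Malat1, and leaving it out raised the calls of the treatment comparison from 5 to 706, of which 582 were lower. Of those 706 genes 651 (92.2%) also had a called slope on Malat1, against 33.1% of all genes tested. Of the lower ones, 563 had a slope that was higher with Malat1. The treated libraries left were all low in Malat1 and most vehicle libraries were high, and the slope was fitted on the same libraries. This overlap therefore cannot tell treatment and Malat1 apart. With the covariate in the model and the same library left out, 2 genes were called. Without any other 1 library the calls were 2 or 3 without the covariate and 2 with it. What sets the Malat1 level of a library was not tested.

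**Figure D3:**
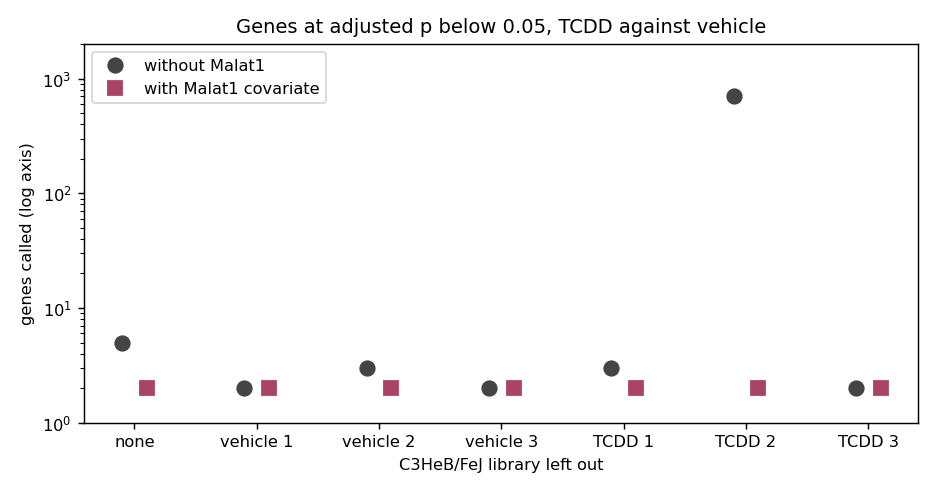
Number of genes called at an adjusted p below 0.05 (log axis) with no library left out and with each of the 6 C3HeB/FeJ libraries left out, without the covariate (circles) and with it (squares). Without the covariate the count is 706 when TCDD replicate 2 is left out and 2 to 5 otherwise, and with the covariate it is 2 in every case shown.

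Beyond Cyp1a1, Cyp1a2 and Htatip2, the AHR gene battery moved less. Of 19 listed genes 17 were tested, and 3 were called, all higher, against 0.0309% of all genes tested. Of the 17, 13 had a log2 change above 0, where 51.3% of all genes tested did. The median change of the list was 0.50 without and 0.66 with the covariate, 0.97 without the covariate when vehicle replicate 2 was left out, and 0.43 with it when TCDD replicate 2 was left out. In CPM, 5 of the 17 had all TCDD libraries above all vehicle libraries, which 2.33% of all genes tested showed. In 1 all lay below, which 3.6% showed. Slc46a3, a lysosomal transporter, was at 92.7, 78.9 and 78.8 CPM in vehicle and at 121.6, 189 and 150 CPM in TCDD. The groups did not overlap, and the log2 change was 0.96 ± 0.29 (SE) without and 0.97 ± 0.30 (SE) with the covariate, adjusted p of 0.645 and 1 in edgeR. Without 3 libraries of other strains that stood apart from their groups, Slc46a3 was called both ways, with adjusted p of 0.0307 and 0.0488 in edgeR. Nqo1, a quinone reductase, was at 6.63, 4.68 and 4.39 CPM in vehicle and at 8.35, 8.94 and 10.7 CPM in TCDD. Its groups did not overlap either, and its log2 change of 0.96 ± 0.29 (SE) had an adjusted p of 0.657 in edgeR.

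Other members of the battery gave no such separation. Tiparp, named for its induction by TCDD, was at 5.67, 1.77 and 7.24 CPM in vehicle and at 1.33, 6.79 and 2.17 CPM in TCDD, high in the 3 libraries with high Malat1. The groups overlapped, and Tiparp was not called. Nfe2l2, which encodes the antioxidant regulator NRF2, was at 41.6, 20.1 and 30.3 CPM in vehicle and at 24.5, 77.1 and 26.3 CPM in TCDD. Only TCDD replicate 2 was above the vehicle range. Ahrr was at 0 CPM in 4 libraries and at 0.122 and 0.167 CPM in TCDD replicates 2 and 3, too low to test, and Aldh3a1, an aldehyde dehydrogenase, had reads in vehicle replicate 3 alone (0.0593 CPM). Cyp1b1, the third enzyme of the CYP1 family, was at 0.161 to 0.356 CPM in vehicle and 0.29 to 0.796 CPM in TCDD, with overlap. The glucuronosyltransferase Ugt1a6b was at 11.6, 11.3 and 8.84 CPM in vehicle and at 7.08, 7.1 and 6.78 CPM in TCDD. It was the 1 member of the battery with all treated libraries lower in CPM. TMM factors of the fit were 0.775 in TCDD replicate 1 and 0.987 in vehicle replicate 3. Scaled by them, TCDD replicate 1 lay above vehicle replicate 3. Ugt1a6a, of the same locus, overlapped, at 26.2 to 36.2 CPM in vehicle and 22.4 to 41.6 CPM in TCDD. The Ugt1a genes share their last exons, so their counts are uncertain. Xdh (xanthine dehydrogenase), Ugdh (which makes UDP-glucuronate), Fmo2, Cyp2s1, Ugt1a7c and Gsta1 were tested and not called.

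The receptor's own machinery gave no call, like nearly all genes tested. Of 9 genes of the AHR complex 8 were tested and 0 were called with or without the covariate. Over all genes tested 0.0309% were called without and 0.0124% with it, so 0 calls in any list here is near that share. The list's median change was -0.08 without the covariate and 0.06 with it. That median had no steady sign, at -0.48 without TCDD replicate 2, 0.08 without TCDD replicate 1 and -0.35 without vehicle replicate 2, all without the covariate. Ahr itself was at 19.6, 7.69 and 26.1 CPM in vehicle and at 6.32, 22.8 and 15.2 CPM in TCDD. The groups overlapped, and Ahr was low where Malat1 was low. Its partner Arnt was steady, at 36.1 to 45.7 CPM in vehicle and 33.9 to 53.9 CPM in TCDD. The slope on Malat1 was called higher for 5 of the 8, against 20.5% of all genes tested.

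Of 16 other liver genes reported to respond to TCDD, 15 were tested. Nptx1 was called, the list's median change was 0.34 without and 0.25 with the covariate, and 9 of 15 were above 0 without it. Without the covariate the median was 0.18 when vehicle replicate 1 was left out, 0.20 without TCDD replicate 3 and 0.61 without vehicle replicate 2, and with the covariate it was 0.01 without TCDD replicate 3. Cyb5a, the cytochrome b5 that passes electrons to P450 enzymes, was at 613, 614 and 657 CPM in vehicle and at 835, 931 and 940 CPM in TCDD. The groups were tight and did not overlap. Its log2 change was 0.63 ± 0.16 (SE) without and 0.56 ± 0.16 (SE) with the covariate, adjusted p of 0.259 and 0.888 in edgeR. Neurl3, a ubiquitin ligase, was at 4.6, 8.07 and 4.21 CPM in vehicle and at 13.3, 10.5 and 15.9 CPM in TCDD. The difference was 1.34 ± 0.34 (SE) in log2 units, adjusted p of 0.262 in edgeR. Fgf21, a hormone the liver releases in fasting, was at 5.91, 6.94 and 4.15 CPM in vehicle and at 1.74, 1.96 and 1.11 CPM in TCDD. It was lower in all 3 treated libraries, with a log2 change of -1.74 ± 0.83 (SE) and an adjusted p of 0.89 in edgeR. Sult5a1, a sulfotransferase, was at 11.4, 16.0 and 21.95 CPM in vehicle and at 13.2, 50.6 and 36.0 CPM in TCDD, which overlapped. Il1r1, the interleukin 1 receptor, overlapped too, at 16.1 to 104 CPM in vehicle and 10.0 to 33.5 CPM in TCDD. Pcp4l1, Pmm1, Abcc3, Calml4, Cd36, Cidec, Notch1, Scd1 and Selenbp1 were tested and not called.

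Several of the smallest p-values short of a call belonged to TCDD replicate 1, the library with the lowest Malat1. Sult2a1, a hydroxysteroid sulfotransferase, was at 119 CPM in TCDD replicate 1 and at 3.06 and 0.667 CPM in the other two, against 0.597 to 0.89 CPM in vehicle. That made a log2 change of 6.09 ± 1.42 (SE), adjusted p of 0.134 in edgeR, and it was 1.25 without TCDD replicate 1. The Sult2a genes are near copies, so their counts are uncertain. Serpina6, the corticosteroid binding globulin of plasma, was at 532, 534 and 505 CPM in vehicle and at 2920, 875 and 1380 CPM in TCDD. All treated libraries were higher, in the reverse order of their Malat1. The log2 change was 1.92 ± 0.49 (SE) without the covariate, 1.30 ± 0.50 (SE) with it and 1.15 without TCDD replicate 1, and the adjusted p of the first was 0.262 in edgeR. With the covariate it was 0.80 without vehicle replicate 2. Tmem97, a sterol-regulated membrane protein, was at 73.0, 72.3 and 59.9 CPM in vehicle and at 175.4, 89.8 and 109 CPM in TCDD. Its log2 change was 1.03 ± 0.24 (SE) without the covariate, adjusted p of 0.123 in edgeR, 0.68 ± 0.23 (SE) with it, 0.56 without the covariate and TCDD replicate 1, and 0.42 with the covariate and no vehicle replicate 2. Slc24a3, a cation exchanger, was at 0.178 to 0.699 CPM in vehicle and at 4.18, 0.673 and 1.72 CPM in TCDD. Its log2 change of 2.70 ± 0.70 (SE) was 1.68 without TCDD replicate 1.

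Of other genes near the threshold, Pir and Elmsan1 changed little in size with the covariate. Pir, an iron-binding nuclear protein, was at 9.67, 7.69 and 6.47 CPM in vehicle and at 9.8, 14.1 and 14.7 CPM in TCDD. The log2 change of Pir was 0.79 ± 0.19 (SE) without and 0.78 ± 0.19 (SE) with the covariate, adjusted p of 0.134 and 0.491 in edgeR. Elmsan1, a histone deacetylase scaffold, was at 14.6, 18.9 and 21.7 CPM in vehicle and at 8.64, 12.5 and 9.95 CPM in TCDD, lower in every treated library. In log2 units the change was -0.75 ± 0.20 (SE) without and -0.78 ± 0.21 (SE) with the covariate, adjusted p of 0.373 and 0.808 in edgeR. Cmc2, a cytochrome oxidase assembly factor, was at 9.2 to 14.4 CPM in vehicle and 15.3 to 17.4 CPM in TCDD, with a log2 change of 0.73 ± 0.19 (SE) without and 0.67 ± 0.20 (SE) with the covariate. Lrig1, a brake on growth factor receptors, was at 52.0, 101 and 106 CPM in vehicle and at 56.6, 42.1 and 51.4 CPM in TCDD. The log2 change of Lrig1 was -0.67 ± 0.23 (SE) without and -0.87 ± 0.23 (SE) with the covariate, adjusted p of 0.794 and 0.613 in edgeR. Nudt4, a diphosphoinositol phosphatase, overlapped between groups at 89.8 to 237 CPM in vehicle and 66.7 to 162 CPM in TCDD. The log2 change of Nudt4 was -0.71 ± 0.17 (SE) without the covariate, adjusted p of 0.192 in edgeR, and -0.48 ± 0.15 (SE) with it. It was called without vehicle replicate 2 (log2 change of -0.98, adjusted p of 0.00116 in edgeR) and without TCDD replicate 2 (-1.05, 0.00126), and by DESeq2 with all 6 libraries (adjusted p of 0.0459). It was -0.42 without vehicle replicate 3 (adjusted p of 1 in edgeR). The amino acid transporter Slc36a4 was at 5.54 to 8.9 CPM in vehicle and 2.09 to 5.81 CPM in TCDD, with a log2 change of -0.96 ± 0.25 (SE) without and -0.86 ± 0.25 (SE) with the covariate.

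Glutathione and NRF2 genes lay above 0 for most members, with 0 of 24 called, against 0.0309% of all genes without the covariate. Of these 24, 18 were above 0 without the covariate and 18 with it, and the median change was 0.23 without and 0.15 with it. Without TCDD replicate 3 the medians were 0.07 and -0.02, and without TCDD replicate 2 they were 0.40 and 0.34. Gstm3, a glutathione transferase, was at 19.8, 19.95 and 15.5 CPM in vehicle and at 31.7, 34.8 and 55.1 CPM in TCDD. Its groups did not overlap, and the log2 change was 1.25 ± 0.41 (SE), adjusted p of 0.77 in edgeR. Gstm4 was at 30.3 to 42.7 CPM in vehicle and 46.8 to 78.2 CPM in TCDD, also without overlap in CPM. Gstm genes are similar enough to share reads. Gclc, which makes the first step of glutathione synthesis, had a negative change, at 160, 136 and 260 CPM in vehicle and 81.2, 159 and 95.1 CPM in TCDD. Its groups overlapped, with a log2 change of -0.67 ± 0.25 (SE), and -0.38 without vehicle replicate 3.

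Plasma proteins of the acute phase and complement lay below 0 for most members. Of 30 tested 0 were called, against 0.0309% of all genes without the covariate. Above 0 were 7 of the 30 without the covariate and 3 with it. The median change was -0.24 without and -0.40 with the covariate, against 0.0102 and 0.0115 for all genes. Without the covariate the median was -0.03 when vehicle replicate 2 was left out, -0.11 without TCDD replicate 2, and -0.14 in the absence of vehicle replicate 3. It was -0.46 with vehicle replicate 1 dropped and -0.58 with TCDD replicate 1 dropped. With the covariate it was -0.18 on dropping vehicle replicate 3 and -0.37 to -0.56 without any other library. The summed level of the list overlapped between groups, at 52181, 88967 and 79929 CPM in vehicle and 77792, 49362 and 64162 CPM in TCDD. Haptoglobin (Hp), which binds free haemoglobin, was at 3705, 7290 and 6137 CPM in vehicle and at 4486, 2919 and 2494 CPM in TCDD. For Hp the log2 change was -0.67 ± 0.29 (SE) without and -0.93 ± 0.28 (SE) with the covariate, and without the covariate it was -0.37 when vehicle replicate 2 was left out and -1.12 without TCDD replicate 1. C8a, of the complement attack complex, was at 424, 438 and 647 CPM in vehicle and at 280, 414 and 240 CPM in TCDD, without overlap, and the fibrinogen chain Fgg was at 3337 to 5861 CPM in vehicle and 2384 to 3328 CPM in TCDD. Socs3, an inhibitor of cytokine signalling, was at 19.6, 49.6 and 82.9 CPM in vehicle and at 17.3, 25.8 and 11.6 CPM in TCDD. It overlapped, and the log2 change was -1.43 ± 0.50 (SE), adjusted p of 0.797 in edgeR.

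Immediate early genes, transcribed within minutes of a stimulus, had the lowest median of the lists with at least 10 tested genes when all 6 libraries were used. Without TCDD replicate 2 and without the covariate the splicing list was lower, at -1.05 against -0.60. Of 18 tested 0 were called, against 0.0309% of all genes without the covariate. Of these 18, 2 were above 0, and the median change was -0.67 without and -0.72 with the covariate. When vehicle replicate 2 was left out the medians were -0.18 and -0.30, with 5 of 18 above 0 in both fits. Their summed level was 563, 1403 and 910 CPM in vehicle and 369, 465 and 534 CPM in TCDD. In CPM every vehicle library was above every TCDD library, and vehicle replicate 2 was the highest. TMM factors of the fit were 1.026 in vehicle replicate 1 and 0.842 in TCDD replicate 3. Scaled by them, TCDD replicate 3 lay above vehicle replicate 1, so the groups overlapped. Jun, a subunit of the AP-1 factor, was at 22.2, 169 and 65.1 CPM in vehicle and at 13.9, 17.1 and 19.1 CPM in TCDD. Its log2 change was -2.32 ± 0.78 (SE), adjusted p of 0.778 in edgeR, and -1.22 without vehicle replicate 2. Dusp1, a phosphatase of MAP kinases, was at 25.9, 170 and 75.6 CPM in vehicle and at 26.5, 18.2 and 30.4 CPM in TCDD, with overlap. Its log2 change was -1.78 ± 0.70 (SE), and -0.81 without vehicle replicate 2. Junb was at 64.4, 194 and 146.4 CPM in vehicle and at 48.3 to 53.1 CPM in TCDD, with a log2 change of -1.32 ± 0.56 (SE), and -0.87 without vehicle replicate 2.

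Genes of sterol synthesis and the cell cycle lay above 0 for most members. They had no calls, where 0.0309% of all genes were called without the covariate. Of 21 cholesterol synthesis genes 0 were called, 16 were above 0 without the covariate and 19 with it, and the median change was 0.41 and 0.30. It was 0.25 without TCDD replicate 3 in the first fit, and in the second 0.15 without vehicle replicate 2 and 0.59 without TCDD replicate 2. Fdft1, squalene synthase, was at 140, 88.8 and 84.4 CPM in vehicle and at 165, 144.3 and 162 CPM in TCDD. All treated libraries were higher in CPM. Scaled by TMM factors of 1.097 in TCDD replicate 2 and 1.026 in vehicle replicate 1, the former lay below the latter. The log2 change of Fdft1 was 0.73 ± 0.21 (SE), adjusted p of 0.488 in edgeR. Mvd, the mevalonate pathway decarboxylase, was at 39.5, 20.8 and 19.8 CPM in vehicle and at 37.9, 54.5 and 66.2 CPM in TCDD, with overlap. Of 25 cell cycle genes 0 were called, and 23 were above 0 without the covariate and 22 with it, with medians of 0.50 and 0.52, and 0.29 and 0.28 without TCDD replicate 3. Birc5 (survivin) was at 1.84 to 2.39 CPM in vehicle and at 1.91, 4.9 and 6.17 CPM in TCDD, so that 1 treated library was within the vehicle range.

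In the remaining metabolic lists 0 genes were called, against 0.0309% of all genes without the covariate. Ppp1r3b, which brings a phosphatase to glycogen, was at 217, 121 and 233.3 CPM in vehicle and at 68.6, 104 and 78.0 CPM in TCDD. It was lower in all treated libraries, with a log2 change of -1.09 ± 0.34 (SE), adjusted p of 0.669 in edgeR, while the glucose and glycogen list had a median change of 0.03 without and -0.16 with the covariate. With 1 library left out the sign of that median varied, from -0.15 (vehicle replicate 1) to 0.14 (TCDD replicate 2) in the first fit and from -0.30 (TCDD replicate 3) to 0.13 (TCDD replicate 2) in the second. Igfbp2, a binding protein of insulin-like growth factors, was at 178, 228 and 207 CPM in vehicle and at 355, 356 and 374 CPM in TCDD. The treated libraries were close together and above all vehicle libraries, with a log2 change of 0.93 ± 0.36 (SE), adjusted p of 0.877 in edgeR. The iron store Fth1 was at 1106 to 1410 CPM in vehicle and 1592 to 1775 CPM in TCDD, without overlap in CPM. Its log2 change was 0.51 ± 0.17 (SE). Cyp26a1, which degrades retinoic acid, was at 3.88, 8.01 and 12.99 CPM in vehicle and at 33.8, 19.03 and 12.7 CPM in TCDD, with overlap. All 38 nuclear genes of oxidative phosphorylation were above 0 without the covariate and 33 with it, with medians of 0.19 and 0.08. Without the covariate the median was 0.06 without TCDD replicate 1 and 0.11 without vehicle replicate 3, and with it 0.04 without TCDD replicate 3 and 0.14 without TCDD replicate 2. Of 26 targets of the drug receptors CAR and PXR 14 were above 0, and of 24 targets of the fatty acid receptor PPARA 11 were.

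**Figure D4:**
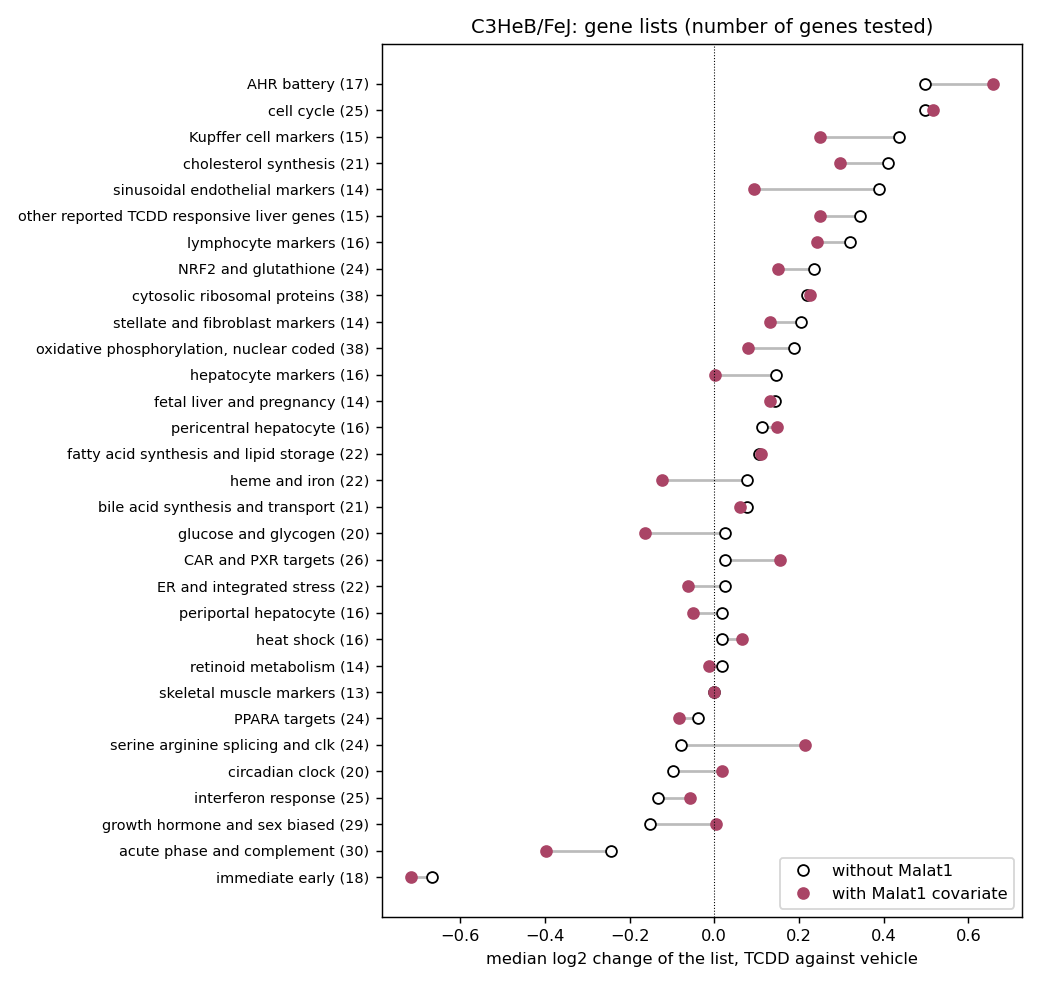
Median log2 change of TCDD against vehicle over the tested genes of each list with at least 10 tested genes, without the covariate (open) and with it (filled); the number tested is in brackets. With all 6 libraries the AHR battery (0.50 and 0.66) and the cell cycle genes (0.50 and 0.52) lie at the top and the immediate early genes (-0.67 and -0.72) at the bottom, an order that changes when TCDD replicate 2 is left out, and the splicing factors go from -0.08 to 0.21.

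Kupffer cell and sinusoidal endothelial markers gave no call with TCDD, where 0.0309% of all genes were called without the covariate. Many of these markers had a called slope on Malat1. Of 16 pericentral hepatocyte markers 1 was called with and without the covariate, which was Cyp1a2. Of 15 Kupffer cell markers 14 were above 0 and 0 were called, with a median of 0.44 without and 0.25 with the covariate. With 1 library left out it was 0.20 (vehicle replicate 3) to 0.72 (vehicle replicate 2) without the covariate, and 0.14 (TCDD replicate 2) to 0.41 (vehicle replicate 2) with it. Their summed level was 805, 1077 and 720 CPM in vehicle and 1134, 937 and 957 CPM in TCDD. Of 14 sinusoidal endothelial markers 13 were above 0 without the covariate and 10 with it, with medians of 0.39 and 0.09 and 0 called. With 1 library left out these were 0.09 (TCDD replicate 1) to 1.03 (vehicle replicate 2), and -0.04 (TCDD replicate 3) to 0.34 (vehicle replicate 2). Their sums were 386, 856 and 358 CPM in vehicle and 726, 441 and 692 CPM in TCDD, high in the 3 libraries with low Malat1. The slope on Malat1 was called lower for 10 of these 14 markers and for 7 of the 15 Kupffer markers, against 12.5% of all genes tested. The scavenger receptor Stab2 was at 63.1, 120 and 60.6 CPM in vehicle and at 118, 74.6 and 98.8 CPM in TCDD. Hepatocyte markers were high in every library, with sums of 108608 to 148593 CPM. Kidney markers summed to 0 to 0.323 CPM, with 5 of 8 at 0 in all 6 libraries. Sums of neutrophil markers were 3.92 to 12.4 CPM in vehicle and 4.67 to 6.9 CPM in TCDD, and those of pancreas markers were 35.4 to 45.6 and 27.9 to 50.2 CPM. The part of cell makeup in the results above was not tested.

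Against the rest of the panel, no gene was called for a different response in C3HeB/FeJ. The C3HeB/FeJ effect minus the mean effect of the other 13 strains gave 0 calls of 16195 (0%) in edgeR, 717 genes at an unadjusted p below 0.05, and 7 calls in DESeq2. The difference for Cyp1a1 was 4.67 ± 1.00 (SE), adjusted p of 0.300 in edgeR, and it was 2.70 without TCDD replicate 3. Without 3 libraries of other strains that stood apart (replicate 1 of BXD-40/TyJ vehicle, replicate 3 of C57BL6/J TCDD and replicate 2 of A/J vehicle), Cyp1a1 alone was called, at a difference of 4.62 with an adjusted p of 0.000708 in edgeR. DESeq2 called Cyp1a1 with all libraries (adjusted p of 0.000941). The difference for Cyp1a2 was 1.51 ± 0.46 (SE), adjusted p of 0.83 in edgeR, and that for Tmem97 was 1.04 ± 0.25 (SE), adjusted p of 0.464, and 0.57 without TCDD replicate 1. Without TCDD replicate 2 there were 318 calls in this contrast, and without vehicle replicate 2 there were 2.

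Strain by strain, the log2 change of Cyp1a1 was 9.41 in C3HeB/FeJ, below CBA/J (10.03), BXD100/RwwJ (10.15), BXD91/2RwwJ (11.21) and C57BL6/J (11.70). The next was A/J at 4.50, and NZO/HILTJ was at -0.30. C3HeB/FeJ was the third for Cyp1a2 at 3.69, after BXD91/2RwwJ at 4.10 and BXD100/RwwJ at 3.96. CBA/J was at 3.48 and C57BL6/J at 3.37, within 1 SE of C3HeB/FeJ. The same 5 strains had the highest changes of Htatip2, from 1.06 in C57BL6/J to 1.57 in BXD91/2RwwJ, and of Nptx1, from 3.46 in CBA/J to 4.17 in C57BL6/J. Sorcs3 was highest in C3HeB/FeJ at 3.98, with CBA/J next at 2.51 and C57BL6/J at 0.09. Its difference between C3HeB/FeJ and CBA/J was 1.47 ± 1.32 (SE), adjusted p of 0.726 in edgeR, and 2.45 without C3HeB/FeJ vehicle replicate 1.

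**Figure D5:**
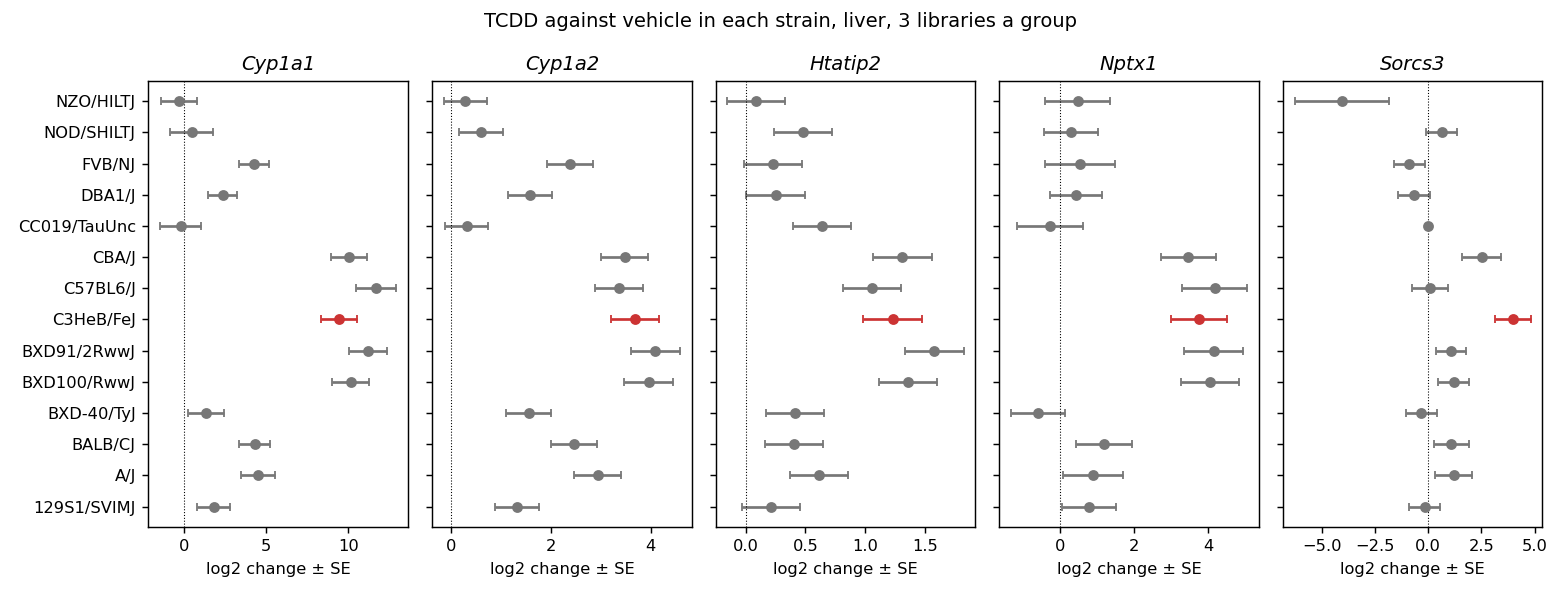
Log2 change of TCDD against vehicle, with its SE, in each of the 14 strains for the 5 genes called in C3HeB/FeJ, which is marked in red. For Cyp1a1, C3HeB/FeJ (9.41) lies with the other 4 strains above 10 (10.03 to 11.70) and apart from the next strain, A/J (4.50).

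CBA/J is an inbred strain related to C3H, and no gene was called for a difference between its treatment effect and that of C3HeB/FeJ. The difference of the effects gave 0 calls of 16195 (0%) in edgeR, 1409 genes at an unadjusted p below 0.05 and 0 calls in DESeq2. The smallest p-value was for Dio1, the liver deiodinase that activates thyroid hormone, which was at 28.8, 37.1 and 41.9 CPM in C3HeB/FeJ vehicle and at 39.2, 84.3 and 50.2 CPM in TCDD. Its difference was 2.18 ± 0.52 (SE), adjusted p of 0.519 in edgeR. The apolipoprotein Apoc2 differed by 1.18 ± 0.30 (SE) at the same adjusted p. In this contrast 474 genes were called without C3HeB/FeJ TCDD replicate 2 and 1 without vehicle replicate 2, which was Aggf1. With the Malat1 covariate in C3HeB/FeJ there were 0 calls in both contrasts between strains.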

How the data were processed

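The labels' protocols give RNA integrity numbers of 7 or more and a NEBNext Ultra kit, without strand marking. The submitters' processing notes list FastQC 0.11.5, Trimmomatic 0.38, Bowtie2 2.3.2.25 and HTSeq 0.6.1, with build mm9. The names given to the deposited counts point instead to strain-specific references, C3H/HeJ for C3HeB/FeJ. Which reference was used is not settled here, and its effect on contrasts between strains was not tested. The authors deposited whole-number counts per gene, used as they are, and a table giving each strain's log2 fold changes with p-values. Rows for reads assigned to no feature, ambiguous or of low quality stayed out of totals.

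R 4.3.3 with edgeR 4.0.16 fitted all 84 libraries in 28 groups (TMM factors 0.775 to 1.16, filterByExpr, robust quasi-likelihood; 16195 genes; common dispersion 0.0651). An adjusted p (Benjamini-Hochberg) below 0.05 is a call. The covariate is log2 Malat1 CPM, centred in C3HeB/FeJ and 0 in the other strains. CPM divide by total gene counts without TMM factors, so overlap of groups in CPM can differ from overlap on the scale of the fit. DESeq2 1.42.0 was an alternative. The edgeR fits without and with the covariate were run on simulated counts, and DESeq2 was not. The simulated spread was that of the fit of all 84 libraries, and the outcome is not reported here. Symbols matched 34679 of 37310 IDs.

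The 41 gene lists, the comparisons and the rule for named genes (AHR genes, the 15 smallest p-values, the 6 smallest in contrasts, 3 per list) were chosen with earlier results of these data known. A few genes were named after their values were seen. Some genes that this rule names are not reported here.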

Additional observations from a re-analysis of the deposited data

How the results depend on the processing

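No paired analysis was possible because replicate numbers follow the order of the accessions and pair no libraries. Without the covariate 5 genes were called by edgeR in the treatment comparison, 3 without the low-count filter (Cyp1a1, Cyp1a2 and Htatip2), 3 with trends on GC content and length removed (Cyp1a1, Cyp1a2 and Nptx1), 0 with the 6 libraries alone, 17 by DESeq2 and 2 to 706 with 1 library left out. With the covariate 2 genes were called, 1 with the 6 libraries alone (Cyp1a2), 5 without the 3 libraries of other strains, 4 with the GC and length trends removed, 9 with a Malat1 slope shared by all strains, 9 by DESeq2 and 2 with any 1 library left out. The predicted gene Gm13775, named after its values were seen, was also called with the covariate in 5 settings by edgeR or DESeq2: dispersions not robust (adjusted p of 0.0419), without the 3 libraries of other strains (0.0488), GC and length trends removed (0.0375), DESeq2 (0.000763) and the covariate as 2 classes (0.0373), the last chosen after seeing the data. Without the covariate it was called by DESeq2 (0.00328) and without TCDD replicate 1 (0.0294). With a covariate, Htatip2 was called in 5 of 17 alternatives, Sorcs3 in 2 and Nptx1 in 1. For Htatip2 the adjusted p in edgeR was 0.0256 with Neat1 as the covariate and 0.00868 without the 3 libraries of other strains. It was 0.0375 with GC and length trends removed and 0.0118 with a shared Malat1 slope, and 0.0128 in DESeq2. The slope on Malat1 was called for 1817 to 5299 genes with 1 library left out, 3759 with GC and length trends removed and 8777 when shared by all strains. Against the mean of the other 13 strains calls were 0 to 318 with 1 library left out, 1 without the 3 libraries of other strains and 7 by DESeq2, and against CBA/J 0 to 474. Of the gene changes that were followed through the alternatives, none reversed its sign. Some fitted values given above were not followed. Among these are the Nptx1 slope on Malat1, Lrig1 without the covariate, and Cmc2 and Slc36a4 with it. The cause of these differences was not tested. With 3 libraries a group, genes under 1 CPM rest on few reads.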

Other observations

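The authors' deposited table gives 16 genes at an adjusted p below 0.05 for C3HeB/FeJ, 14 higher and 2 lower, among them the 5 genes called by edgeR without the covariate. Of the 16 genes in the authors' deposited table, 5 have under 10 counts per library on average. Cox8b, a cytochrome oxidase subunit of muscle, has a log2 fold change of 39.0 in the authors' deposited table and counts of 0, 0 and 0 in vehicle and 2, 0 and 3 in TCDD. Eef1a2, a muscle and brain elongation factor, has 23.2 there with 1 read in TCDD replicate 2 and 0 reads in the other libraries. Apobec2 has 17.3 in the authors' deposited table with 3 reads in TCDD replicate 3 alone, and Cfd (adipsin) has -17.1 with 2, 0 and 2 reads in vehicle and 0 in TCDD. Scn4a, a muscle sodium channel, has -15.3 there with 1 read in vehicle replicate 1. Skeletal muscle marker genes summed to 3.28 to 21.5 CPM in vehicle and 5.86 to 23.6 CPM in TCDD.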
